A study of Mus musculus with 2 samples.

Results

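The genes described here encode the proton pump and the digestive machinery of the lysosome, together with the transcription factors that switch them on. They were chosen by symbol as 38 of the 32285 genes in the files, and all 38 had a row in both libraries. The list holds 6 subunits of the membrane sector (V0) and 8 subunits of the soluble sector (V1) of the vacuolar proton pump, 9 cathepsins, 5 glycosidases, 6 proteins of the lysosomal membrane or of lipid handling, and the 4 MiT/TFE transcription factors. Levels were read in single nuclei of epididymal white adipose tissue (eWAT) from obese male C57BL/6N mice, 8 weeks old when the diet began. The mice ate a high-fat (HF) diet, first for 6 weeks without injections and then for 8 weeks with injections into the peritoneum 3 times a week, of homoharringtonine (HF-HHT) or of phosphate-buffered saline (HF-PBS). Homoharringtonine (HHT) is a plant alkaloid that blocks the ribosome and is used against leukemia, and it was dissolved in dimethyl sulfoxide before dilution in saline. Each condition was 1 library made from nuclei pooled from 3 mice, stained with DAPI and flow-sorted, so no value here has a replicate and no difference was tested. The intervals given are exact 95% intervals of counting error, and 1.5-fold is used as a size and not as a test.

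The vacuolar proton pump, or V-ATPase, is a rotary machine: the V1 sector splits ATP in the cytosol and turns the ring of the V0 sector, which carries protons into the organelle. The acid it makes is needed by the cathepsins, which cut proteins, and by the glycosidases, which trim sugars from glycolipids, glycogen and glycoproteins. Tfeb, Tfe3, Mitf and Tfec are related factors that bind the E-box CACGTG, and its longer form TCACGTGA is the core of the CLEAR element found before many lysosomal genes. In obese fat, macrophages gather around dying adipocytes and take up their lipid, and Gpnmb, a membrane glycoprotein and known MiT/TFE target, marks the lipid-laden ones.

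The promoters showed the recognition site of those factors more often than promoters at large, which is given as a description without a test. RefSeq promoter windows of 300 bases (250 before and 50 after the start site, build GRCm38.p6) were matched by symbol for 29 of the 38 members, and the other 9 were Atp6v0a2, Atp6v0d2, Atp6v1b2, Atp6v1c1, Atp6v1g1, Atp6v1h, Ctsb, Ctsh and Npc1. The E-box, which reads the same on both strands, lay in a window of 10 of the 29 members (34.5%), against 2187 of 27025 genes with a window (8.09%). The form TCACGTGA, which contains the E-box, lay in 6 of the 29 (20.7%), against 304 of the 27025 (1.12%), and the 6 were Ctsa, Ctsd, Mcoln1, Atp6v0d1, Atp6v1a and Gla. The 6 stretches printed here are each the 250 bases before the start site in the direction of the gene. They set members past 1.5-fold between the macrophage states beside members within 1.5-fold. E-box letters are in capitals (8 capitals where the site is TCACGTGA). Atp6v1a (chr16:44139260-44139509, minus strand) and Gla (chrX:134601006-134601255, minus strand) hold the longer form and were higher in Gpnmb-high macrophages. Mcoln1 (chr8:3500269-3500518, plus strand) and Lamp1 (chr8:13158911-13159160, plus strand) hold 2 and 4 E-boxes and were not. Both stayed within 1.5-fold, and Lamp1 leaned lower, at log2 ratios of -0.57 in HF-HHT and -0.34 in HF-PBS. Gusb (chr5:130003050-130003299, minus strand) and Ctsc (chr7:88277835-88278084, plus strand) hold none in these letters and differed between the macrophage states in opposite directions.

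Atp6v1a: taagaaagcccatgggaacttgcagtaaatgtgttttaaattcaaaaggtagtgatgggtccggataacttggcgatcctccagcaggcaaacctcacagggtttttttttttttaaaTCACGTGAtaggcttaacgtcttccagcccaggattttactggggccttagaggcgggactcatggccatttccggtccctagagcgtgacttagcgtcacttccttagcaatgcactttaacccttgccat
Gla: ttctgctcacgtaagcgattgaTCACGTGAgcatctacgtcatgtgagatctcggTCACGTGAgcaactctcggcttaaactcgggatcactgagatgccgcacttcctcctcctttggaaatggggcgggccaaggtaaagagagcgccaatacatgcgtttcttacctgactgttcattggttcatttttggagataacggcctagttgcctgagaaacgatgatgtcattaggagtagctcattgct
Mcoln1: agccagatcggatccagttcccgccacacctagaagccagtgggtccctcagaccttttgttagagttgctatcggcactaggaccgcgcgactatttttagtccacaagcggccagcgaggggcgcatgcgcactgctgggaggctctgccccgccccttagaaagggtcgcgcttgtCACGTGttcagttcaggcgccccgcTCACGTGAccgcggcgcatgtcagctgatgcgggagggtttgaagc
Lamp1: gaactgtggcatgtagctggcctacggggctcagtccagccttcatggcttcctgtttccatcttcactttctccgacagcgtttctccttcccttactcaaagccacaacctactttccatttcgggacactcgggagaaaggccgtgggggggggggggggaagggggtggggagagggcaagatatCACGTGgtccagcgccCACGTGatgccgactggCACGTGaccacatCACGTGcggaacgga
Gusb: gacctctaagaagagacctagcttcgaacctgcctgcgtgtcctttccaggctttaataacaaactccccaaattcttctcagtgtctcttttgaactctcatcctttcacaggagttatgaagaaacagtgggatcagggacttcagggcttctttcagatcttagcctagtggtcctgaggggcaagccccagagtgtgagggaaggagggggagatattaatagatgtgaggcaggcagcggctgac
Ctsc: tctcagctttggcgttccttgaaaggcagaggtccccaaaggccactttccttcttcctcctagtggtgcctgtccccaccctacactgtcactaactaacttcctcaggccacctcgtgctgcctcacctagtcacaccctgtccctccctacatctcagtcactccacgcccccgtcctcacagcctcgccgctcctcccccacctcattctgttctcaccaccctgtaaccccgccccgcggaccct

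Counted from the first base of the site, the 4 E-boxes of Lamp1 began at positions -61, -45, -28 and -15 from the start site, those of Mcoln1 at -71 and -45, those of Gla at -227 and -194, and that of Atp6v1a at -131. Of the 10 members with an E-box, 3 were at least 1.5-fold higher in Gpnmb-high macrophages of HF-HHT and 4 in those of HF-PBS. Of the 19 members with a window but no E-box, 5 and 5 were, and of the 9 members without a window, 5 and 4 were. Of all measured genes, 14% were higher to that extent in HF-HHT and 13.5% in HF-PBS. A match is a description of letters and not a bound site. In GENCODE vM21, 12 of the 38 genes overlap a gene on the opposite strand and 0 overlap one on the same strand.

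After filtering, 6446 nuclei of HF-HHT (median 3973 UMIs) and 6657 of HF-PBS (median 4307 UMIs) were kept, 13 cell barcodes were kept in both libraries, and the nuclei fell into 14 clusters named from fixed markers. The classes are named "like" their markers and called by the short name here. Macrophages, with all 9 markers above 0, held 2243 nuclei of HF-HHT and 3580 of HF-PBS, adipocytes 851 and 149, adipocyte precursor cells (APCs) 674 and 751, B cells 39 and 739, and a duct-like epithelium 686 and 1. The macrophage nuclei formed 2 clusters, and the one with Gpnmb CPM above the mean of the 2 is called Gpnmb-high. Its 10 leading genes included Mmp12, Gpnmb and Atp6v0d2, but only Gpnmb was used for the name. No gene described here was among the 2000 used to form the clusters. Gpnmb itself stood at 1232 CPM (UMIs of the gene scaled to the total UMIs of the class) in Gpnmb-high against 47.9 CPM in other macrophages of HF-HHT, and at 2542 against 233 CPM in HF-PBS, which is the check of the name and not a result. Gpnmb-high nuclei were 28.7% of macrophages in HF-HHT (exact 95% interval 26.8 to 30.6, 643 of 2243) and 47.6% in HF-PBS (46.0 to 49.2, 1704 of 3580). Free RNA, read from near-empty droplets, was estimated at 5.68% of macrophage UMIs in HF-HHT and 6.53% in HF-PBS, and it carried 107 CPM of Atp6v0d2 in HF-HHT and 786 CPM in HF-PBS.

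Macrophages were the class with the highest level for more of the genes than any other class. Among classes with at least 50 nuclei, macrophages ranked first for 24 of the 38 members in HF-HHT, 7 of them without overlap of the counting interval with that of the next class, and for 15 in HF-PBS, again 7 without overlap. In HF-PBS, 14 members ranked first in erythroid cells, a class of 53 nuclei with a median of 761 UMIs of which 37.3% was estimated to be free RNA. Macrophages supplied 84.9% of all Atp6v0d2 UMIs in kept nuclei of HF-HHT and 90.4% in HF-PBS, whereas they held 31.5% and 59.6% of UMIs of every gene. Mitf, Ctss and Ctsc had lower shares than Atp6v0d2, with 65.96%, 81.4% and 81.5% of their UMIs in macrophages of HF-HHT, and 83.6%, 84.2% and 72.9% in those of HF-PBS. Such shares were not particular to these genes, as Ctsb had 70.1% in HF-HHT and 80.9% in HF-PBS.

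Several members had their highest level elsewhere. Atp6v0a2, an isoform of the V0 subunit a known from Golgi and endosomes, was highest in dendritic cells, with 150 CPM in HF-HHT and 145 CPM in HF-PBS, and next in T and NK cells, with 105 CPM in HF-HHT and 82.1 CPM in HF-PBS. The intervals of these 2 classes overlapped in HF-HHT and did not in HF-PBS, and macrophages had 50.5 CPM in HF-HHT and 36.00 CPM in HF-PBS. Atp6v0a1, the a isoform abundant in neurons, stood in adipocytes at 744 CPM in HF-HHT and 1019.8 CPM in HF-PBS, against 644 CPM in HF-HHT and 967 CPM in HF-PBS for macrophages, and in HF-HHT the adipocyte interval (727 to 761) lay above that of macrophages (628 to 659). Gpnmb-high macrophages alone carried 1391 CPM in HF-HHT and 1376 CPM in HF-PBS. Tfeb in B cells stood at 108 CPM in HF-HHT, from 7 UMIs in 39 nuclei, and at 230 CPM (206 to 256) in HF-PBS. That interval holds the 214 CPM of HF-PBS macrophages. Free RNA of HF-PBS carried 103 CPM and was estimated at 15.4% of B-cell UMIs there. In HF-HHT, Tfeb was at 209 CPM in dendritic cells and 168 CPM in macrophages. Ctsh, an aminopeptidase of the cathepsin family, led in dendritic cells with 284 CPM in HF-HHT and 162 CPM (130 to 199) in HF-PBS. The HF-PBS interval overlapped that of B cells (98.9 to 135). Other macrophages alone carried 184 CPM of Ctsh in HF-HHT and 157 CPM in HF-PBS. Mitf, beside macrophages, was present in APCs, with 913 CPM in HF-HHT and 827 CPM in HF-PBS, and in adipocytes, with 625 CPM in HF-HHT and 915 CPM in HF-PBS, against 118 CPM in HF-HHT and 318 CPM in HF-PBS in T and NK cells.

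**Figure D1:**
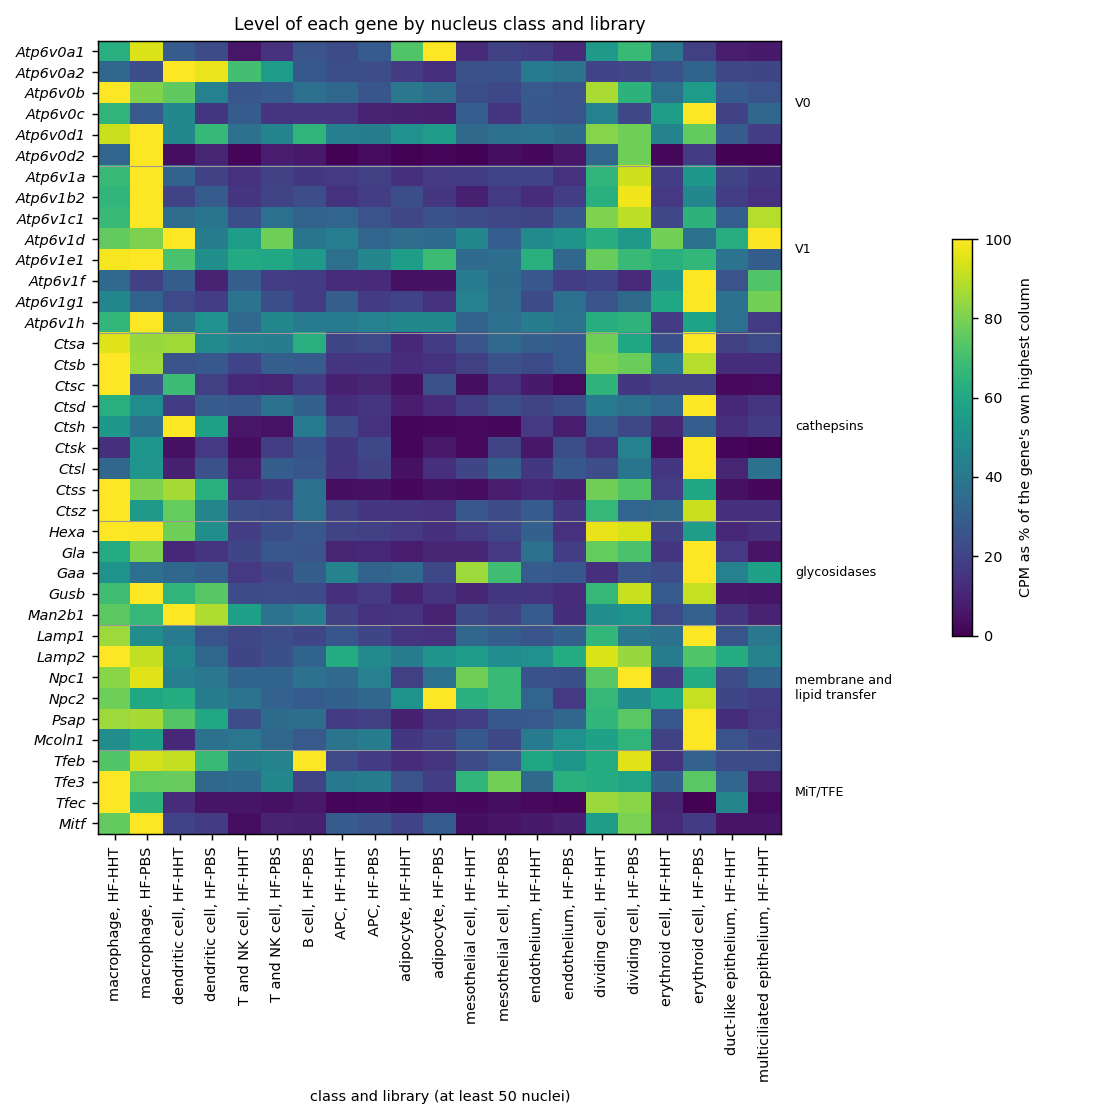
Heat map of the 38 genes (rows, grouped by role) in each class of nuclei and library with at least 50 nuclei (columns). Color is the CPM as a percentage of that gene's own highest column, so colors compare columns within a row and not genes with each other. Macrophage columns are among the brightest for most rows, dendritic cells for Atp6v0a2 and Ctsh, and adipocytes for Atp6v0a1 and, in HF-PBS, Npc2.

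Between the 2 macrophage states, a subset of the pump subunits, a pair of cathepsins, a pair of glycosidases and Mitf were higher in Gpnmb-high macrophages in both libraries, while Ctsc and Ctsh were lower. In HF-HHT, 13 of 38 members were at least 1.5-fold higher in the Gpnmb-high state and 5 lower, where 14% and 21.4% of all measured genes were. In HF-PBS, 13 were higher and 3 lower, where 13.5% and 19.2% of all measured genes were. The share higher (34.2% in each library) was above that of all genes. However, the members were chosen with earlier results of these data known. Gpnmb, which defines the state, is also a known MiT/TFE target. The comparison with all genes is therefore a description, and no conclusion about the list is drawn from it. The 11 members higher in both libraries were Atp6v0a1, Atp6v0d2, Atp6v1a, Atp6v1b2, Atp6v1c1, Atp6v1h, Ctsk, Ctsl, Gla, Gusb and Mitf. These 11 were 84.6% of each library's list. The 3 lower in HF-PBS, Atp6v1f, Ctsc and Ctsh, were also lower in HF-HHT, and made up 60.0% of its list. The median log2 ratio over members was 0.19 in HF-HHT and 0.36 in HF-PBS, against -0.06 and -0.07 over all measured genes.

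In the V0 sector the difference lay in 2 of the 6 subunits. Atp6v0d2 (chr4:19876841-19922605, GENCODE vM21 on GRCm38), the inducible d isoform of osteoclasts and macrophages, had 1302 against 103 CPM in HF-HHT and 2216 against 548 CPM in HF-PBS in Gpnmb-high against other macrophages. That is a log2 ratio of 3.66 (3.55 to 3.78) in HF-HHT and 2.02 (1.97 to 2.06) in HF-PBS, the widest of any member in HF-HHT. With every nucleus thinned to 1500 UMIs, a UMI of Atp6v0d2 was seen in 62.8% of Gpnmb-high and 7.05% of other macrophages in HF-HHT, and in 82.9% and 32.9% in HF-PBS (74.8%, 10.5%, 93.7% and 48.9% before thinning). T and NK cells, taken as a comparison for free RNA, gave 1.78% in HF-HHT and 14.1% in HF-PBS, below both states in each library, at median depths of 1542 and 1748 UMIs against 4055 and 4946 for macrophages. Atp6v0a1 (chr11:101009452-101063719) had 1391 against 292 CPM in HF-HHT and 1376 against 429 CPM in HF-PBS, or log2 ratios of 2.25 and 1.68. With Gpnmb-high nuclei picked by a Gpnmb UMI after thinning instead of by cluster, the ratios in HF-HHT and HF-PBS were 2.68 and 1.5 for Atp6v0d2 and 1.39 and 0.92 for Atp6v0a1, smaller but past 1.5-fold.

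The remaining V0 subunits stayed within 1.5-fold between the states with 1 exception. Atp6v0b, a proteolipid of the rotating ring, had 255 against 234 CPM in HF-HHT and 206 against 181 CPM in HF-PBS in Gpnmb-high against other macrophages. Atp6v0d1, the ubiquitous d isoform, had 218 against 177 CPM in HF-HHT and 233 against 171 CPM in HF-PBS, and so ran close to level where its isoform Atp6v0d2 did not. Atp6v0a2 had 48.00 against 51.6 CPM in HF-HHT and 37.4 against 34.1 CPM in HF-PBS. Atp6v0c, the ring's main proteolipid, was the exception, with 63.5 against 109 CPM in HF-HHT and 37.98 against 44.6 CPM in HF-PBS, lower in Gpnmb-high nuclei past 1.5-fold in HF-HHT only (log2 ratio -0.78 against -0.23 in HF-PBS, a difference that was not tested).

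In the V1 sector, 4 of the 8 subunits were higher in Gpnmb-high macrophages of each library, and they were the same 4. Atp6v1a, the catalytic A subunit, had 509 against 189.7 CPM in HF-HHT and 586 against 224 CPM in HF-PBS in Gpnmb-high against other macrophages, a log2 ratio of 1.42 (1.32 to 1.53) in HF-HHT and 1.38 (1.31 to 1.46) in HF-PBS. Atp6v1b2, the B subunit that alternates with A in the head, had 594 against 226 CPM in HF-HHT and 719 against 260 CPM in HF-PBS. Atp6v1c1, the C subunit that ties V1 to V0, had 203 against 90.02 CPM in HF-HHT and 254 against 97.7 CPM in HF-PBS. These 3 genes and Atp6v1h had like ratios in both libraries, from 1.17 to 1.42 in HF-HHT and from 1.24 to 1.47 in HF-PBS on the log2 scale. Atp6v1h, the regulatory H subunit, had 358 against 155 CPM in HF-HHT and 443 against 188 CPM in HF-PBS, or log2 ratios of 1.21 and 1.24. Over the 8 subunits the median log2 ratio was 0.68 in HF-HHT and 0.87 in HF-PBS.

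The other 4 V1 subunits did not follow. Atp6v1d, part of the central rotor, had 53.3 against 46.9 CPM in HF-HHT and 59.2 against 41.6 CPM in HF-PBS, and Atp6v1e1, of the peripheral stalk, had 124 against 127 CPM in HF-HHT and 144 against 106 CPM in HF-PBS. Atp6v1g1, also of the stalk, was read at few UMIs, with 26.6 against 28.4 CPM in HF-HHT and 19.3 against 18.9 CPM in HF-PBS. Atp6v1f, of the rotor, was lower in the Gpnmb-high state of both libraries, with 8.78 against 14.04 CPM in HF-HHT and 5.85 against 8.78 CPM in HF-PBS, from 30 and 71 Gpnmb-high UMIs. With Gpnmb-high nuclei picked by a Gpnmb UMI at 1500 UMIs instead of by cluster, its ratio in HF-PBS was 0.05 instead of -0.59, so the direction for this gene depends on how the state is drawn.

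**Figure D2:**
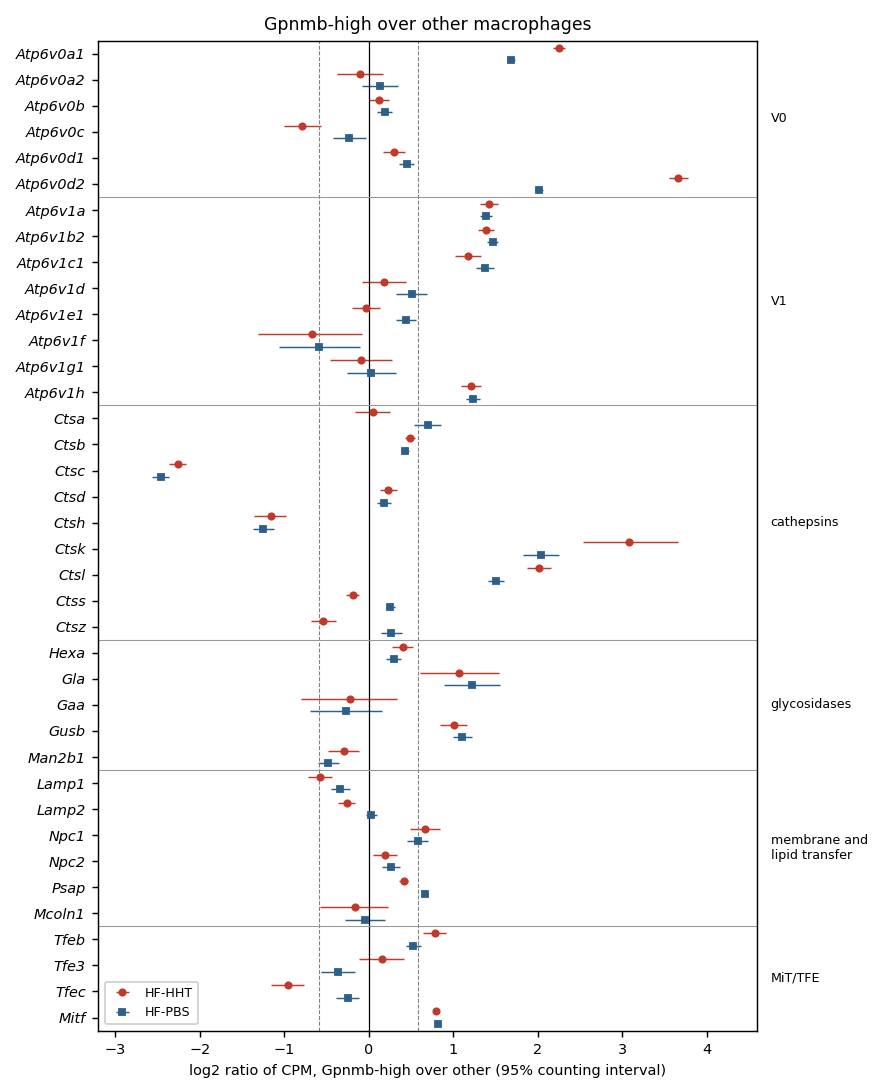
Log2 ratio of CPM in Gpnmb-high over other macrophages for each of the 38 genes (rows, grouped by role), in HF-HHT (red circles) and HF-PBS (blue squares), with bars for the 95% counting interval, a solid line at 0 and dashed lines at 1.5-fold either way. Atp6v0d2, Atp6v0a1 and Ctsl, beside Ctsk, whose level in other macrophages is read as background, lie farthest to the right in both libraries and Ctsc farthest to the left, at -2.26 and -2.46.

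The cathepsins divided by member. Ctsk (chr3:95499256-95509362), the collagen-cutting protease of osteoclasts, had 40.7 against 4.82 CPM in HF-HHT and 94.00 against 22.9 CPM in HF-PBS in Gpnmb-high against other macrophages. In other macrophages the share of thinned nuclei with a Ctsk UMI, 0.685% in HF-HHT and 3.64% in HF-PBS (1.88% and 8.85% unthinned), was no higher than in T and NK cells (0.712% and 4.52%) and is read as background, so no fold is given for this gene. Gpnmb-high nuclei gave 2.91% (1.73 to 4.56) and 8.44% (7.16 to 9.87). Ctsl, a broad endopeptidase, had 341 against 84.5 CPM in HF-HHT and 367 against 129 CPM in HF-PBS, or log2 ratios of 2.01 and 1.51. T and NK cells had 39.1 CPM (27.8 to 53.4) of Ctsl in HF-HHT and 150 CPM (131 to 172) in HF-PBS. Other macrophages of HF-PBS were thus no higher in Ctsl than T and NK cells, and the HF-PBS ratio carries that limit.

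Ctsc (chr7:88278085-88310888), the dipeptidase that activates the serine proteases of immune granules, went the other way and was the member most depleted from the state. It had 260.5 against 1249 CPM in HF-HHT and 83.5 against 459 CPM in HF-PBS in Gpnmb-high against other macrophages, log2 ratios of -2.26 (-2.36 to -2.16) in HF-HHT and -2.46 (-2.56 to -2.36) in HF-PBS, and of -1.98 and -1.30 with the state picked by a Gpnmb UMI. Thinned nuclei with a Ctsc UMI were 22.8% of Gpnmb-high and 66.5% of other macrophages in HF-HHT, and 11.3% and 38.4% in HF-PBS (40.1%, 81.00%, 30.6% and 64.2% unthinned). Endothelium gave 9.05% in HF-HHT and 5.62% in HF-PBS (median depths 1862 and 3458 UMIs). Ctsh had 82.2 against 184 CPM in HF-HHT and 66.2 against 157 CPM in HF-PBS, about as depleted in both libraries, at -1.16 and -1.25.

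The 5 other cathepsins were nearer to level. Ctsb, a lysosomal cysteine protease with endo- and carboxypeptidase activity, had 1281 against 913 CPM in HF-HHT and 991 against 735 CPM in HF-PBS in Gpnmb-high against other macrophages. Ctsd, the aspartic protease, had 337 against 287 CPM in HF-HHT and 248 against 219 CPM in HF-PBS, and Ctss, which trims the invariant chain of class II antigen presentation, had 595 against 679 CPM in HF-HHT and 562 against 471 CPM in HF-PBS. All 3 stayed within 1.5-fold. Ctsz, a carboxypeptidase, had 150.4 against 218 CPM in HF-HHT and 115 against 95.3 CPM in HF-PBS and pointed in opposite directions in the 2 libraries, both times within 1.5-fold. Ctsa, the protective protein of lysosomal sialidase and galactosidase, had 82.2 against 79.7 CPM in HF-HHT and 85.7 against 52.9 CPM in HF-PBS and passed 1.5-fold in HF-PBS only, at log2 ratios of 0.05 in HF-HHT and 0.70 in HF-PBS, a difference that was not tested.

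Among the glycosidases, the same 2 of 5 were at least 1.5-fold higher in the Gpnmb-high state of each library. Gusb, which removes glucuronic acid from glycosaminoglycans, had 181 against 90.3 CPM in HF-HHT and 224 against 104 CPM in HF-PBS, or log2 ratios of 1.01 (0.85 to 1.17) and 1.11 (1.0 to 1.22). Gla, the alpha-galactosidase that is deficient in Fabry disease, had 23.1 against 11.01 CPM in HF-HHT and 25.8 against 11.1 CPM in HF-PBS, or 1.07 and 1.22. Hexa, a subunit of the hexosaminidase that breaks down ganglioside, had 259.6 against 196 CPM in HF-HHT and 234 against 191 CPM in HF-PBS. Man2b1, the lysosomal alpha-mannosidase, and Gaa, which degrades glycogen, stayed within 1.5-fold, with 98.6 against 121 CPM in HF-HHT and 87.00 against 121 CPM in HF-PBS for Man2b1 and 11.1 against 12.9 CPM in HF-HHT and 8.07 against 9.76 CPM in HF-PBS for Gaa.

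Of the membrane and lipid transfer genes, none passed 1.5-fold in both libraries. Npc1, the membrane exporter of lysosomal cholesterol, had 129 against 81.5 CPM in HF-HHT and 130.1 against 87.2 CPM in HF-PBS in Gpnmb-high against other macrophages, past 1.5-fold in HF-HHT and just under it in HF-PBS (0.67 and 0.58). Psap, the precursor of the saposins that lift lipids to the glycosidases, had 1615 against 1214 CPM in HF-HHT and 1619.6 against 1021 CPM in HF-PBS, within it in HF-HHT (0.41) and past it in HF-PBS (0.67). Npc2, the soluble partner of Npc1, had 192 against 168 CPM in HF-HHT and 145 against 121 CPM in HF-PBS. Lamp1 and Lamp2, the abundant glycoproteins that line the lysosome, were not among the genes higher in the state. Lamp1 had 162 against 242 CPM in HF-HHT and 113 against 142 CPM in HF-PBS, and Lamp2 had 350 against 419.8 CPM in HF-HHT and 364 against 357 CPM in HF-PBS. Mcoln1, the lysosomal calcium channel, had 21.9 against 24.6 CPM in HF-HHT and 27.4 against 28.2 CPM in HF-PBS.

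Of the MiT/TFE factors, only Mitf was at least 1.5-fold higher in the Gpnmb-high state of both libraries, with the state drawn by cluster. It had 3355 against 1936 CPM in HF-HHT and 3865 against 2182 CPM in HF-PBS in Gpnmb-high against other macrophages, log2 ratios of 0.79 (0.76 to 0.83) and 0.83 (0.80 to 0.85). Tfeb had 234 against 136 CPM in HF-HHT and 246 against 171 CPM in HF-PBS, past 1.5-fold in HF-HHT (0.78) and near it in HF-PBS (0.53). With the state picked by a Gpnmb UMI, Mitf stood at 0.36 in HF-HHT and 0.09 in HF-PBS, within 1.5-fold. Tfeb stood above Mitf under that choice, at 0.51 and 0.24, also within 1.5-fold. Tfe3 had 52.4 against 47.1 CPM in HF-HHT and 33.2 against 42.7 CPM in HF-PBS and stayed within 1.5-fold. Tfec, the member known from myeloid cells, had 76.1 against 148 CPM in HF-HHT and 75.1 against 89.4 CPM in HF-PBS, lower past 1.5-fold in HF-HHT only (-0.96 against -0.25).

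The genes were also read along 7 finer macrophage clusters, where some of them followed Gpnmb more closely than others. Their Gpnmb level spanned 13.4 to 2847 CPM in HF-HHT and 133 to 4502 CPM in HF-PBS. In the cluster with the highest Gpnmb, which had Mmp12 among its leading genes, Atp6v0d2 stood at 2006 CPM in HF-HHT and 2963 CPM in HF-PBS, against 10.5 and 121 CPM in a cluster with Ccr2 and Clec4e among its leading genes. Ctsc was the reverse, with 82.3 CPM in HF-HHT and 43.1 CPM in HF-PBS in the Mmp12 cluster, against 1529 and 397 CPM in the Ccr2 cluster. Over the 7 clusters, the rank correlation with Gpnmb was 1.0 in HF-HHT and 1.0 in HF-PBS for Gusb, 0.89 and 1.0 for Atp6v0d2, 1.0 and 0.89 for Atp6v1b2, and -0.61 and -0.68 for Ctsc. For Ctsk it was 0.99 and 0.96, over clusters that include other macrophages, where its level is read as background, so no order is read from it. It was weaker for Atp6v0a1, at 0.71 in HF-HHT and 0.71 in HF-PBS, for Ctsl, at 0.61 and 0.82, and for Mitf, at 0.68 and 0.32. Tfeb followed Gpnmb more closely than Mitf did, at 0.89 in HF-HHT and 0.86 in HF-PBS. These are descriptions over 7 points that share a library and its free RNA. Lamp2 had no common order, at -0.93 in HF-HHT and 0.50 in HF-PBS. A small cluster with Marco and Cd5l among its leading genes (13 nuclei of HF-HHT and 52 of HF-PBS) had the most Ctsd, 1676 CPM in HF-HHT and 1334 CPM in HF-PBS, where the other 6 clusters ran from 212 to 369 CPM and from 148 to 293 CPM. Gpnmb in that cluster was 16.9 CPM in HF-HHT and 158 CPM in HF-PBS, so the Ctsd level there did not go with Gpnmb.

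**Figure D3:**
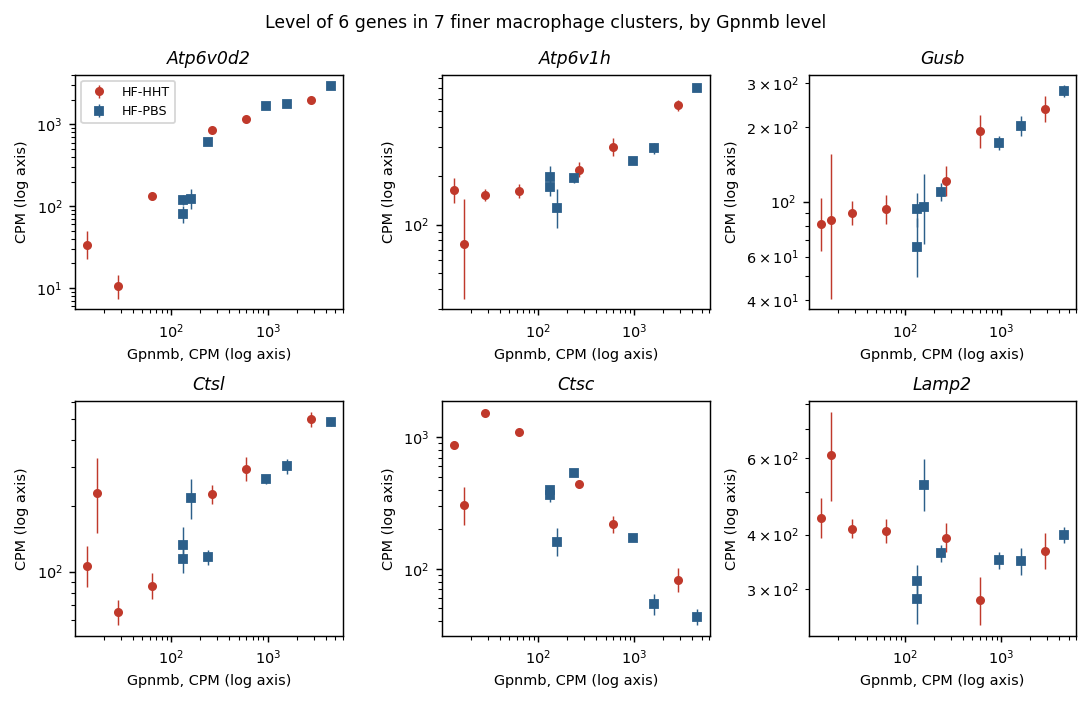
Level of 6 genes (CPM, log axis) against the level of Gpnmb (CPM, log axis) in 7 finer macrophage clusters, for HF-HHT (red circles) and HF-PBS (blue squares), with bars for the 95% counting interval. Gusb and Atp6v0d2 lie higher where Gpnmb is high. Atp6v1h and Ctsl follow it less closely, with rank correlations of 0.79 and 0.61 in HF-HHT and 0.75 and 0.82 in HF-PBS. Ctsc is lower in the Mmp12 cluster than in the Ccr2 cluster, and Lamp2 shows no common order. The panel of Atp6v0d2 leaves out 1 cluster of HF-HHT with no UMI of it.

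The second question was whether the genes differed between the HF-HHT and HF-PBS macrophages. Over all macrophages, 6 of 38 members were at least 1.5-fold higher in HF-HHT and 6 lower, where 25.8% and 8.53% of all measured genes were. The median log2 ratio was 0.07 over members and 0.16 over all measured genes, and with TMM factors 5 members were higher and 9 lower. The 6 lower members were Atp6v0a1, Atp6v0d2, Atp6v1b2, Atp6v1h, Ctsk and Ctsl, each of which was also higher in the Gpnmb-high state. HF-HHT macrophages held fewer Gpnmb-high nuclei, and the part of that share in these ratios was not tested. With both states given equal weight in each library, an alternative chosen after seeing the data, Atp6v0d2 stayed lower past 1.5-fold, at -0.98, and the value of Ctsk, -1.36, averages in a level of other macrophages that is read as background. Atp6v0a1, for example, stood at 644 CPM in HF-HHT and 967 CPM in HF-PBS in all macrophages, a log2 ratio of -0.59 that became -0.10 with equal weight. Atp6v1b2 (344 CPM in HF-HHT and 521 CPM in HF-PBS) became -0.26, Atp6v1h (220 CPM in HF-HHT and 333 CPM in HF-PBS) became -0.30 and Ctsl (166 CPM in HF-HHT and 265 CPM in HF-PBS) became -0.22.

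The 6 higher members were Atp6v0c, Atp6v1f, Ctsc, Ctsz, Lamp1 and Tfec, and 5 of them stayed past 1.5-fold with equal weight. Ctsc stood at 932 CPM in HF-HHT and 246 CPM in HF-PBS in all macrophages, with a log2 ratio of 1.92 (1.88 to 1.97) and 1.48 with equal weight. Atp6v0c stood at 94.7 CPM in HF-HHT and 40.8 CPM in HF-PBS (1.21 and 1.07), Ctsz at 196 CPM in HF-HHT and 106 CPM in HF-PBS (0.89 and 0.81), and Lamp1 at 216 CPM in HF-HHT and 125 CPM in HF-PBS (0.79 and 0.67). Atp6v1f was read at 12.4 CPM in HF-HHT and 7.12 CPM in HF-PBS from 132 and 152 UMIs. Tfec stood at 125 CPM in HF-HHT and 81.3 CPM in HF-PBS and no longer passed with equal weight (0.45).

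Within the Gpnmb-high state most of the pump and hydrolase genes lay close to level between the libraries. There, 4 of 38 members were at least 1.5-fold higher in HF-HHT and 2 lower, where 20.4% and 6.25% of all measured genes were, and TMM factors gave 2 and 2. The 4 subunits Atp6v1a, Atp6v1b2, Atp6v1c1 and Atp6v1h had log2 ratios of -0.20, -0.28, -0.32 and -0.31, or of 0.01, -0.16, -0.15 and -0.11 with the state picked by a Gpnmb UMI, and Atp6v0a1 was at 0.01 (-0.03 to 0.06). Psap, at 1615 CPM in HF-HHT and 1619.6 CPM in HF-PBS, also showed no difference beyond counting error. Atp6v0d2 was the pump subunit lower past 1.5-fold, at 1302 CPM in HF-HHT and 2216 CPM in HF-PBS, with a log2 ratio of -0.77 (-0.81 to -0.72), and its thinned share of nuclei was 62.8% (58.9 to 66.7) in HF-HHT against 82.9% (81.00 to 84.6) in HF-PBS. Gpnmb was also lower within the state in HF-HHT, as given above, so the cluster is not at 1 fixed Gpnmb level in both libraries. Picking the state by a Gpnmb UMI instead left Atp6v0d2 at -0.46, within 1.5-fold. Ctsk was lower as well, at 40.7 CPM in HF-HHT and 94.00 CPM in HF-PBS (log2 ratio -1.21, -1.47 to -0.95), and stayed past 1.5-fold under that choice, at -0.72.

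The members higher in HF-HHT within the Gpnmb-high state were Ctsc, Atp6v0c, Tfe3 and Atp6v1f. Ctsc stood at 260.5 CPM in HF-HHT and 83.5 CPM in HF-PBS (1.64, 1.51 to 1.77). Atp6v0c was at 63.5 CPM in HF-HHT and 37.98 CPM in HF-PBS (0.74), Tfe3 at 52.4 CPM in HF-HHT and 33.2 CPM in HF-PBS (0.66), and Atp6v1f at 8.78 CPM in HF-HHT and 5.85 CPM in HF-PBS, where the interval of the ratio included 0 (-0.08 to 1.22). With the state picked by a Gpnmb UMI, Ctsc stood at 0.96 and Atp6v0c at 0.73, while Tfe3 (0.41) and Atp6v1f (0.45) were within 1.5-fold.

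In other macrophages, 9 of 38 members were at least 1.5-fold higher in HF-HHT and 3 lower, where 24.9% and 9.03% of all measured genes were, so the share higher (23.7%) was near that of all genes, and TMM factors gave 5 and 4. The 9 were Atp6v0a2, Atp6v0c, Atp6v1f, Atp6v1g1, Ctsa, Ctsc, Ctsz, Lamp1 and Tfec. Ctsc stood at 1249 CPM in HF-HHT and 459 CPM in HF-PBS (log2 ratio 1.44, 1.39 to 1.5), and 66.5% (64.02 to 68.9) against 38.4% (36.2 to 40.7) of thinned nuclei carried a UMI of it. Atp6v0c was at 109 CPM in HF-HHT and 44.6 CPM in HF-PBS (1.30), Ctsz at 218 CPM in HF-HHT and 95.3 CPM in HF-PBS (1.20) and Lamp1 at 242 CPM in HF-HHT and 142 CPM in HF-PBS (0.77). The rest of the 9 had log2 ratios of 0.59 to 0.73. Other macrophages of HF-HHT held more of the Ccr2 cluster, with 784 nuclei of HF-HHT and 370 of HF-PBS. That cluster had 1529 CPM of Ctsc in HF-HHT and 397 in HF-PBS, and the cluster led by Vcam1 had 1105 and 532 CPM. Other finer clusters are not given here, and the part of the cluster mix in the Ctsc ratio was not tested.

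The 3 lower members of other macrophages were Atp6v0d2, Ctsk and Ctsl. Atp6v0d2 stood at 103 CPM in HF-HHT and 548 CPM in HF-PBS (log2 ratio -2.42, -2.53 to -2.30), and at -2.37 after free RNA, estimated at 5.96% of UMIs in HF-HHT and 7.09% in HF-PBS, was subtracted. Gpnmb was also lower in other macrophages of HF-HHT, at 47.9 CPM against 233 CPM in HF-PBS. With the state picked by a Gpnmb UMI, Atp6v0d2 stood at -1.64, smaller but past 1.5-fold. Thinned nuclei with an Atp6v0d2 UMI were 7.05% (5.79 to 8.49) in HF-HHT and 32.9% (30.8 to 35.1) in HF-PBS, and T and NK cells shared that direction, with 1.78% and 14.1%. Ctsl was at 84.5 CPM in HF-HHT and 129 CPM in HF-PBS (-0.61). It was at -0.25 after free RNA was subtracted and at -0.35 with the state picked by a Gpnmb UMI, both within 1.5-fold. Ctsk, at 4.82 CPM in HF-HHT and 22.9 CPM in HF-PBS, was within the background described above and no difference is read from it.

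**Figure D4:**
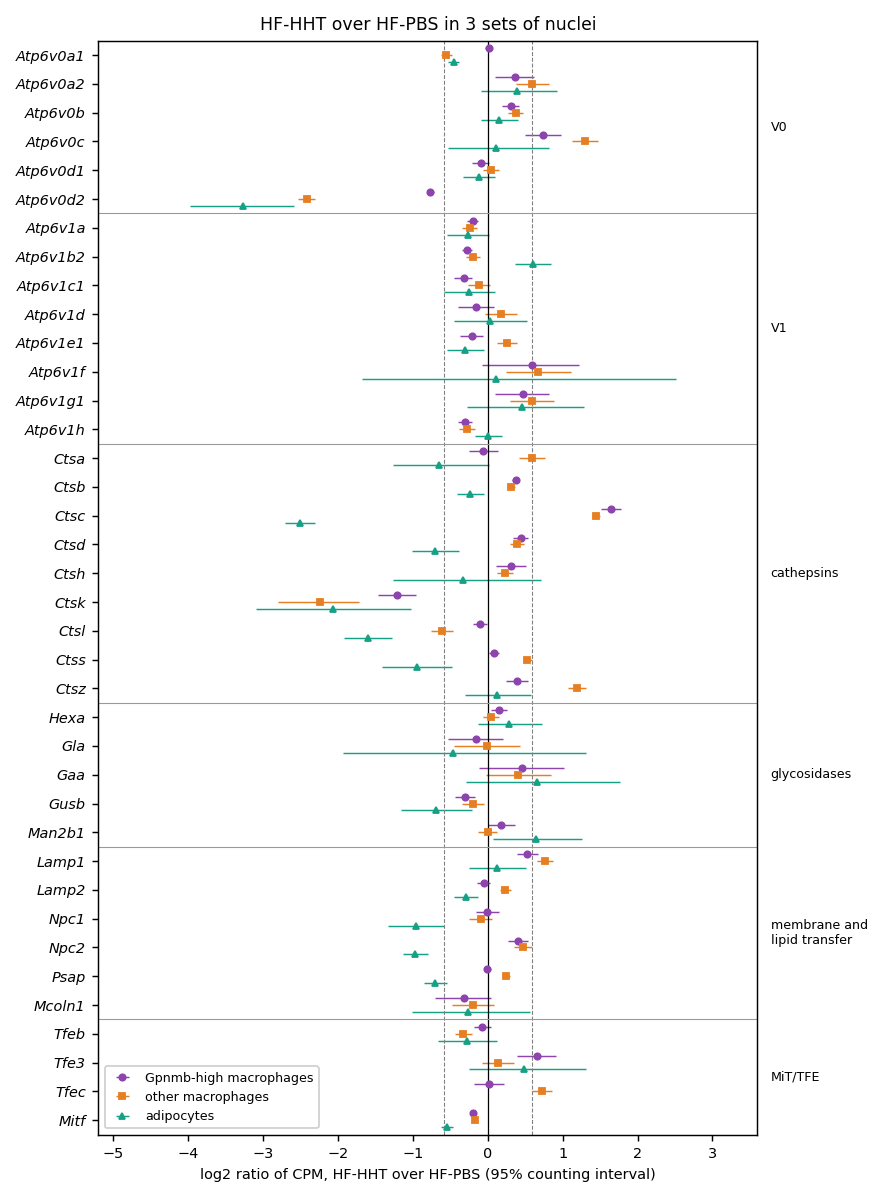
Log2 ratio of CPM in HF-HHT over HF-PBS for each of the 38 genes (rows, grouped by role), in Gpnmb-high macrophages (purple circles), other macrophages (orange squares) and adipocytes (green triangles), with bars for the 95% counting interval, a solid line at 0 and dashed lines at 1.5-fold either way, and genes under 20 counts in a set are left out of it. Ctsc lies right of the dashed line in both macrophage states, at 1.64 and 1.44, and far left in adipocytes, at -2.51, while Atp6v0d2 lies left in all 3, as does Ctsk, whose level in other macrophages is read as background.

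In adipocytes 6 of the 9 cathepsins and 3 lipid handling genes were lower in HF-HHT, while 12 of the 14 pump subunits lay within 1.5-fold. Of 37 members measured, 3 were at least 1.5-fold higher in HF-HHT and 11 lower, where 35.5% and 12.3% of all measured genes were, and TMM factors gave 0 and 15. No cathepsin was higher, and their median log2 ratio was -0.70, against 0.31 over all measured genes. Ctsc stood at 40.6 CPM in HF-HHT and 231 CPM in HF-PBS (log2 ratio -2.51, -2.71 to -2.31), Ctsl at 22.8 CPM in HF-HHT and 69.1 CPM in HF-PBS (-1.60), Ctsd at 36.02 CPM in HF-HHT and 58.6 CPM in HF-PBS (-0.70) and Ctss at 14.6 CPM in HF-HHT and 28.3 CPM in HF-PBS (-0.95). The HF-PBS value of Ctsc came from 442 UMIs in 149 nuclei, and nuclei with a UMI of it were 30.2% in HF-HHT and 70.5% in HF-PBS (6.71% and 18.9% after thinning).

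The 3 lipid handling genes Npc1, Npc2 and Psap were lower as well. Npc2 stood at 115 CPM in HF-HHT and 225 CPM in HF-PBS (log2 ratio -0.97, -1.13 to -0.80), Npc1 at 22.3 CPM in HF-HHT and 43.5 CPM in HF-PBS (-0.96) and Psap at 145 CPM in HF-HHT and 235 CPM in HF-PBS (-0.70). Gusb was also lower, at 16.5 CPM in HF-HHT and 26.7 CPM in HF-PBS (-0.69), and Ctsa (-0.65) and Ctsk (-2.07) rested on 28 and 16 UMIs of HF-PBS. Of the pump, Atp6v0d2 was lower, at 2.89 CPM in HF-HHT and 27.7 CPM in HF-PBS (-3.27), whereas Atp6v0a1 was at 744 CPM in HF-HHT and 1019.8 CPM in HF-PBS (-0.45), Atp6v1h at 156 CPM in HF-HHT and 155 CPM in HF-PBS (0.01) and Atp6v0d1 at 104 CPM in HF-HHT and 113 CPM in HF-PBS (-0.12). Atp6v1b2, Man2b1 and Gaa were the 3 members higher in HF-HHT, with log2 ratios of 0.60, 0.64 and 0.66. Macrophage markers moved in the same direction: all 9 were above 0 in adipocytes of HF-HHT and 8 in those of HF-PBS, with summed levels of 198 CPM in HF-HHT and 528 CPM in HF-PBS, and Gpnmb stood at 7.26 and 72.8 CPM. Their part in these differences was not tested, and after free RNA was subtracted (3.31% of adipocyte UMIs in HF-HHT and 4.39% in HF-PBS) 6 of the 11 stayed lower past 1.5-fold: Ctsa at -0.69, Ctsc at -3.21, Ctsl at -1.61, Ctss at -2.41, Npc1 at -0.96 and Npc2 at -1.02. Psap (-0.55), Ctsd (-0.55), Ctsk (-0.57) and Gusb (-0.45) no longer passed it, Atp6v0d2 was left with at most 3 UMIs in each library, and Atp6v1f passed it, at -1.15.

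APCs, the precursors of adipocytes, showed little difference. Of 37 members measured, 2 were at least 1.5-fold higher in HF-HHT and 1 lower, where 23.1% and 7.88% of all measured genes were, and TMM factors gave 1 and 2. Atp6v1g1 stood at 18.3 CPM in HF-HHT and 10.6 CPM in HF-PBS (log2 ratio 0.78, 0.20 to 1.36) and Ctsh at 65.2 CPM in HF-HHT and 42.1 CPM in HF-PBS (0.63). Atp6v0d2 stood at 8.96 CPM in HF-HHT and 43.1 CPM in HF-PBS (-2.26), and subtraction of free RNA left at most 3 UMIs of it in each library. Ctsk, Ctsl and Mitf were at 19.4 CPM in HF-HHT and 26.4 CPM in HF-PBS for Ctsk, 79.6 CPM in HF-HHT and 98.7 CPM in HF-PBS for Ctsl and 913 CPM in HF-HHT and 827 CPM in HF-PBS for Mitf, all within 1.5-fold.

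The pathway list holds 77 other lysosomal genes, and the 5 named from it were chosen after their values were seen. In the Gpnmb-high state 17 of 71 measured (23.9%) were at least 1.5-fold higher and 12 (16.9%) lower in HF-HHT, where 14% and 21.4% of all measured genes were. In HF-PBS, 14 of 71 (19.7%) were higher and 10 (14.1%) lower, where 13.5% and 19.2% of all measured genes were. Among them, Tcirg1, the a isoform of the osteoclast pump, had 267 against 152 CPM in HF-HHT and 369 against 158 CPM in HF-PBS in Gpnmb-high against other macrophages (0.81 and 1.23). Lipa, the acid lipase that frees cholesterol and fatty acids from lipid droplets taken up, had 540.2 against 167 CPM in HF-HHT and 506 against 159.7 CPM in HF-PBS (1.69 and 1.66). Igf2r, a receptor for the mannose phosphate tag that delivers hydrolases, had 191 against 50.4 CPM in HF-HHT and 170.4 against 57.8 CPM in HF-PBS (1.93 and 1.56), and Fnip2, a partner of folliculin in the control of Tfeb and Tfe3, had 1375 against 462 CPM in HF-HHT and 2043 against 487 CPM in HF-PBS (1.57 and 2.07). These 4 were higher in the state in both libraries, and Plbd1, a phospholipase B-like protein of granules, was lower, at -3.40 and -3.31. Between the libraries, 4 of 70 measured (5.71%) were higher in HF-HHT and 2 (2.86%) lower in Gpnmb-high macrophages, where 20.4% and 6.25% of all genes were. In other macrophages 17 of 71 (23.9%) were higher and 3 (4.23%) lower, against 24.9% and 9.03% of all genes, and in all macrophages 14 of 72 (19.4%) and 5 (6.94%), against 25.8% and 8.53%. In adipocytes 18 of 71 (25.4%) were higher and 8 (11.3%) lower, against 35.5% and 12.3% of all genes, and in APCs 17 of 71 (23.9%) and 4 (5.63%), against 23.1% and 7.88%. In adipocytes the median log2 ratio was -0.27 over the members and 0.15 over the list.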

How the data were processed

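Single nuclei of frozen eWAT were profiled with 10x 3' v3.1 chemistry. The authors aligned reads to mm10 with Cell Ranger (5.0.0 per the labels) and deposited raw UMI counts per gene and barcode for each library, and the sources used here do not say if intronic reads entered them. From the deposited counts, nuclei were called by depth or against free RNA (at least 500 UMIs, false discovery rate 0.01), doublets scored in scanpy 1.11.5 were removed (6.08% in HF-HHT and 6.19% in HF-PBS), and nuclei with under 400 genes, past the 95th percentile of UMIs or genes, or over 0.5% mitochondrial UMIs were dropped. Libraries were integrated and clustered in Seurat 5.3.0 (R 4.3.3; 2000 features, 30 dimensions, the lowest resolution giving 14 clusters), and clusters were named from marker lists. UMIs were summed per class and library and divided by all UMIs of that class (CPM), with exact Poisson intervals for levels and exact binomial intervals for ratios and shares. Genes with at least 20 counts over both sets were measured. With 1 library per condition and no replicates, no test was run. TMM factors came from edgeR 4.0.16 and served only as an alternative scaling. Values were printed for every member with at least 100 macrophage counts, which all 38 had. The members and lists were chosen with earlier results of these data known. The scripts were checked on simulated data. 0 columns of other samples were present.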

Additional observations from a re-analysis of the deposited data

Results flagged for a closer look

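Ctsc pointed in opposite directions in macrophages and adipocytes. Its log2 ratio of HF-HHT over HF-PBS was 1.64 in Gpnmb-high macrophages and 1.44 in other macrophages, against -2.51 in adipocytes, and the counting intervals of the macrophage and adipocyte values lay on opposite sides of 0. Ctsa had 0.59 in other macrophages and -0.65 in adipocytes, where the counting interval of -1.27 to 0.02 included 0, and -0.06 (-0.25 to 0.13) in Gpnmb-high macrophages. With 1 library per condition, the difference between classes was not tested for either gene.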

How the results depend on the processing

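Counts of members past 1.5-fold in HF-HHT over HF-PBS depended on scaling and on how states were drawn. In all macrophages, 6 lower members became 3 with equal weight of nuclei and 2 with equal weight of the states, the last chosen after seeing the data. In Gpnmb-high macrophages, 4 higher became 2 with TMM factors, with median-of-ratios factors and with the state picked by a Gpnmb UMI at 1500 UMIs, and 2 lower became 1 with that state. In other macrophages, 9 higher became 5 with TMM factors and 4 with median-of-ratios factors. In adipocytes, 3 higher became 0 with either scaling and 1 with every barcode of at least 500 UMIs, with no upper limit on UMIs and genes, or with equal weight of nuclei, and 11 lower became 7 with free RNA subtracted, 6 of them shared. In APCs, 2 higher became 1 and 1 lower became 2 with TMM factors, median-of-ratios factors or no upper limit, and the lower count was 2 with free RNA subtracted, 0 shared, and 3 with equal weight of nuclei. Between the states, 5 lower in HF-HHT became 3 with the state picked by a Gpnmb UMI, and under that choice Atp6v1f in HF-PBS changed sign, with 0.0506 in place of -0.59. The causes were not tested. Of the 13 members higher in the Gpnmb-high state, 11 in HF-HHT and 12 in HF-PBS stayed past 1.5-fold under every alternative run, as did Ctsc, Ctsl, Npc1 and Npc2 of the 11 lower in adipocytes, and Atp6v0d2 could not be measured there with free RNA subtracted. No paired analysis was possible because each condition was 1 library.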
